A study of Mus musculus with 36 samples.

Results

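The sirtuins are the 7 mouse genes Sirt1 to Sirt7, chosen by their gene symbol in the mRNA count table of cultured lung endothelial cells (ECs). All 7 were among the 14584 genes tested, of 51826 genes counted. The rule that chose them used gene symbols and no measured value, but it was set with earlier results of these data known. Every one of the 9 libraries held reads of every sirtuin, from 62 counts of Sirt5 to 6688 counts of Sirt2.

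Sirtuins are enzymes that consume NAD+ to remove acetyl or other acyl groups from lysines, and release nicotinamide. SIRT1, SIRT6 and SIRT7 are mostly nuclear, SIRT2 is mostly cytoplasmic, and SIRT3, SIRT4 and SIRT5 are mitochondrial. In ECs, SIRT1 is known to deacetylate the nitric oxide synthase NOS3 and p53, and the miR-34 family is a known repressor of Sirt1.

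The 9 libraries were poly(A) mRNA of untreated lung ECs, 3 each of WT, LA-Tg and Prog-Tg mice. Both transgenic groups carried a VE-cadherin-driven tetracycline trans-activator (Cdh5-tTA) and a tetracycline-controlled human lamin A minigene, which was wild-type in LA-Tg and carried the progeria point mutation in Prog-Tg. Prog-Tg cells can thus make lamin A as well as progerin from the transgene, and the comparison with LA-Tg is the one in which both groups carry a lamin A minigene. The mice were 10 to 15 days old and on a C57BL/6J background, with the trans-activator line of FVB origin. The cells had been selected by ICAM-2 on magnetic beads, and RNA was taken at passage 3. The study calls the libraries of a genotype biological replicates and says that WT and Prog-Tg ECs came from primary isolates of littermates, but the labels tie no library to a mouse or litter. A replicate number below names a library.

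Library totals ranged from 17961152 to 67602012 counts, the highest in Prog-Tg 3. The 8 endothelial markers had counts in every library and summed to 6119 to 10440 CPM. CPM, the unit of all levels below, is counts divided by the TMM-scaled library total and given per 1000000. In Prog-Tg versus WT, 2 of these 8 markers had a positive log2 fold change and 6 a negative one. Their median was −0.5, beside −0.0080 over all genes tested, and 0 of the 8 had an unadjusted p under 0.05 in edgeR. Lymphatic endothelial markers (Prox1, Lyve1, Flt4, Pdpn and Reln) summed to 4739 to 7895 CPM in WT, 1435 to 7437 CPM in LA-Tg and 1518 to 5245 CPM in Prog-Tg, with the lowest sums in LA-Tg 2 and Prog-Tg 2. Fibroblast markers summed to 86.8 to 392 CPM in WT, 20.7 to 560 CPM in LA-Tg and 98.3 to 826 CPM in Prog-Tg. Over all libraries mural cell markers summed to 3.92 to 397 CPM, leukocyte markers to 11.4 to 48.9 CPM and epithelial markers to 0.303 CPM or less. A sum of 4 Y-linked genes ranged from 0 CPM in LA-Tg 2 and Prog-Tg 2 to 377 CPM in Prog-Tg 1. LA-Tg 1 held 0.0519 CPM of them. Xist, an X-linked gene, was at 1153 to 1328 CPM in LA-Tg 1, LA-Tg 2 and Prog-Tg 2. It was at 0.274 CPM or less in WT 1, Prog-Tg 1 and Prog-Tg 3. WT 2, WT 3 and LA-Tg 3 held Xist at 961.5, 753.1 and 217.6 CPM beside Y-linked sums of 147, 105 and 149 CPM. The libraries thus also differed in their Y-linked and Xist reads. Lmna, which encodes lamins A and C, was at 220.4 ± 55.9 CPM (SD, n = 3) in WT, 358 ± 92.7 CPM in LA-Tg and 431 ± 141 CPM in Prog-Tg, and these counts do not separate mouse transcripts from transgene reads that align to the mouse gene.

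The sirtuin genes lie at 7 separate places of GRCm38 (GENCODE M21). Sirt1 spans chr10:63319005-63381704 and Sirt6 spans chr10:81621785-81627797, both on the minus strand. Sirt2 spans chr7:28766735-28788661 on the plus strand and Sirt3 chr7:140863666-140882309 on the minus strand of the same chromosome. Sirt4 spans chr5:115478010-115484725 (minus), Sirt5 chr13:43365496-43395203 (plus) and Sirt7 chr11:120618372-120625240 (minus).

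The miR-34 sequences are shown because they bear on the 2 sirtuin transcripts with a seed match. The mature miRs are from RefSeq (GRCm38.p6), with the seed, bases 2 to 8, in capitals.
miR-34a-5p: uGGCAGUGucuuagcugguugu
miR-34b-5p: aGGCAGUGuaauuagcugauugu
Both share the seed GGCAGUG. Only Sirt1 and Sirt7 held a match of 7 bases or more in their longest annotated coding 3′ UTR, and the 3′ UTRs of the other 5 sirtuins held 0. Sirt1 held 2 matches in 1631 bases of 3′ UTR, both 7mer-A1 (seed bases 2 to 7 followed by an A), and Sirt7 held 1 match in 630 bases, a 7mer-m8 (seed bases 2 to 8). The matched bases are in capitals, read along the transcript.
Sirt1, chr10:63319838-63319866, minus strand: tcaccacaaatACTGCCAagatgtgaata
Sirt1, chr10:63319342-63319370, minus strand: ttaggaccattACTGCCAgaggagaaaag
Sirt7, chr11:120618525-120618553, minus strand: ggagagtccacCACTGCCttacctcactc
Over the 21037 genes with such a 3′ UTR, 7.5% held a 7mer-A1 match, 10.5% a 7mer-m8 match, 19.8% a match of any class (8mer included) and 4.3% at least 2 matches. The median length of these 3′ UTRs was 960 bases, against 1631 for Sirt1 and 630 for Sirt7, and the shares are not matched for length. A match is a run of letters and not a measured site.

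Sirt2 was the most abundant sirtuin mRNA and Sirt5 the least abundant, whichever length was used. Per kilobase of all annotated exons, Sirt2 was at 19.7 ± 2.03 CPM per kb (SD over 9 libraries), above 82.5% of the 14561 genes tested that had a length. Sirt1 followed at 8.21 ± 3.12, Sirt6 at 5.78 ± 0.89, Sirt7 at 5.06 ± 0.676 and Sirt4 at 3.91 ± 0.444 CPM per kb. Sirt3 at 1.06 ± 0.249 and Sirt5 at 0.746 ± 0.132 CPM per kb were low, at the 23.8 and 19.3 percentiles. The ranges of neighbours in this order did not overlap between Sirt2 and Sirt1 or between Sirt4 and Sirt3. The ranges of the other neighbours overlapped, although Sirt6 was above Sirt7 and Sirt7 above Sirt4 in 9 of 9 libraries. Sirt1 was above Sirt6 in 7 of 9, and Sirt3 above Sirt5 in 7 of 9.

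The middle of the order depended on the length. Per kilobase of the longest coding transcript, Sirt7 stood next to Sirt2 at 15.1 ± 2.01 CPM per kb, where its coding transcript has 1727 bases against 5148 bases of annotated exon. Sirt1 then followed at 9.88 ± 3.76 and Sirt6 at 8.51 ± 1.31 CPM per kb, with Sirt1 above Sirt6 in only 3 of 9 libraries. On this scale Sirt2 stayed at the top (46.9 ± 4.83), and Sirt5 at the bottom (1.87 ± 0.333) without overlap with its neighbour Sirt3 (3.95 ± 0.925).

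**Figure D1:**
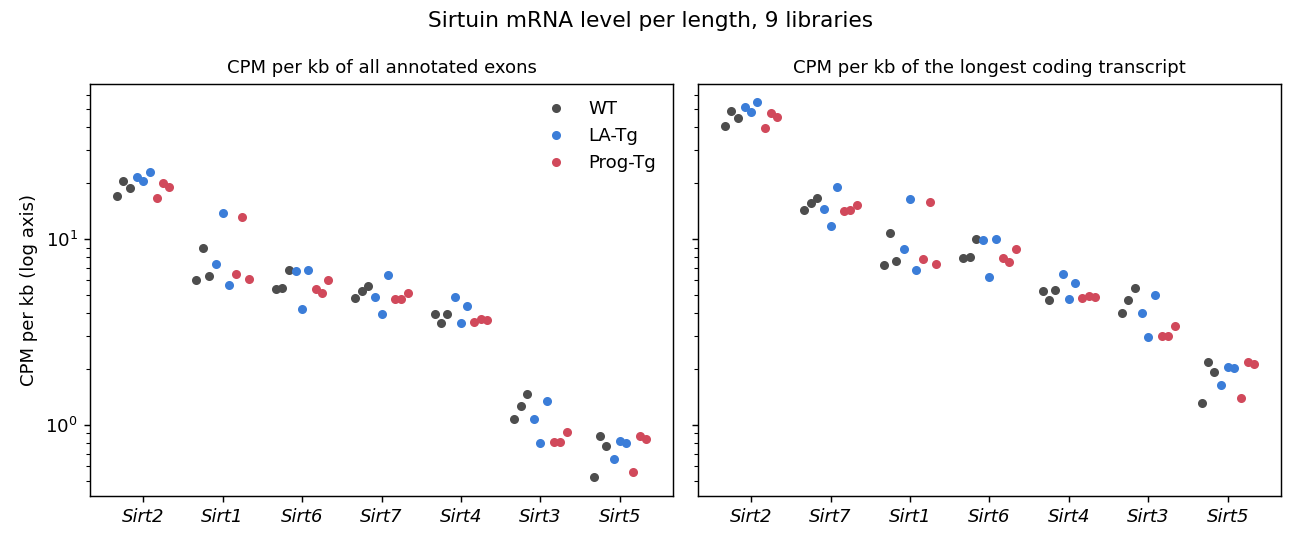
Level of each sirtuin in the 9 libraries, as CPM per kb of annotated exon (left) or of the longest coding transcript (right), on a log axis. Points are single libraries coloured by genotype, and genes are ordered by their mean: Sirt2 leads and Sirt5 is last in both, while Sirt7 stands below Sirt1 and Sirt6 on the left and above both on the right.

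None of the 7 sirtuins differed between genotypes at an adjusted p under 0.05 in edgeR's quasi-likelihood test, in any of the 3 comparisons. At an unadjusted p under 0.05 the count was also 0 of 7 in each comparison. Fitted differences ran from −0.58 to 0.27 on the log2 scale in Prog-Tg versus WT, from −0.24 to 0.33 in LA-Tg versus WT and from −0.34 to −0.0033 in Prog-Tg versus LA-Tg. The sirtuins' median differences were −0.063, 0.075 and −0.10, beside −0.0080, −0.0055 and −0.0029 over all genes tested. As a background, 0% of genes passed the adjusted threshold in any comparison, while 3.40% passed the unadjusted one in Prog-Tg versus WT, 0.830% in LA-Tg versus WT and 1.71% in Prog-Tg versus LA-Tg. DESeq2 gave an adjusted p under 0.05 to 2, 0 and 7 genes in these comparisons and limma-voom to 0 genes in each, with no sirtuin among them. The 3 comparisons share libraries, so their values are given side by side and not as independent results. In bulk RNA, fewer cells of a type and less RNA per cell cannot be told apart.

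**Figure D2:**
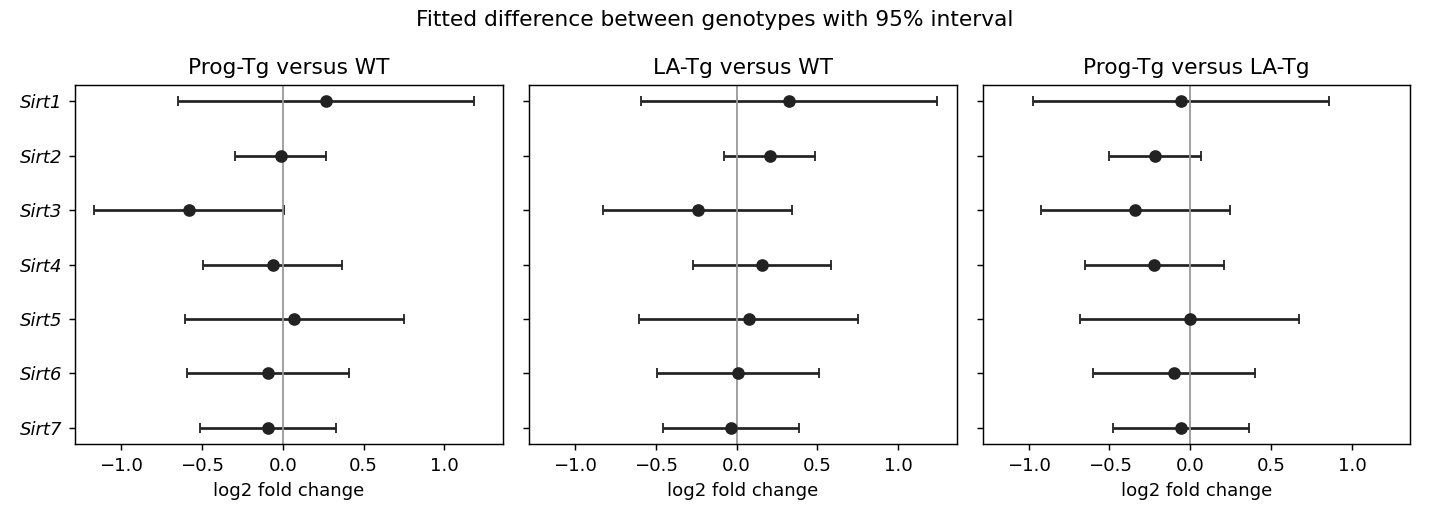
Fitted log2 fold change of each sirtuin in the 3 comparisons between genotypes, with its 95% interval. All intervals include 0. The intervals of Sirt1 are the widest and those of Sirt2 the narrowest, and Sirt3 in Prog-Tg versus WT lies farthest from 0 at −0.58.

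Sirt3 encodes the main deacetylase of the mitochondrial matrix. Its level was 6.40, 7.60 and 8.71 CPM in the 3 WT libraries, 6.46, 4.76 and 7.99 CPM in LA-Tg and 4.83, 4.85 and 5.49 CPM in Prog-Tg. All 3 Prog-Tg libraries lay below all 3 WT libraries, while LA-Tg spanned both. The mean was 7.57 ± 1.16 CPM in WT, 6.40 ± 1.62 CPM in LA-Tg and 5.06 ± 0.374 CPM in Prog-Tg (SD, n = 3). In Prog-Tg versus WT the log2 fold change was −0.58 (standard error 0.256, edgeR adjusted p = 0.83), with a 95% interval from −1.16 to 0.0077, and the difference did not pass the test. The unadjusted threshold was missed with edgeR and limma-voom (adjusted p = 0.757) and passed with DESeq2 (adjusted p = 0.83). It was −0.24 (standard error 0.255, adjusted p = 1.00) in LA-Tg versus WT and −0.34 (standard error 0.256, adjusted p = 0.999) in Prog-Tg versus LA-Tg. Sirt3 was thus 1 of 7 sirtuins whose WT and Prog-Tg libraries did not overlap, a share near the 13.7% of all genes tested for which this held in either direction. The summed lymphatic markers also had a lower range in Prog-Tg (1518 to 5245 CPM) than in WT (4739 to 7895 CPM). Fibroblast sums ran from 98.3 to 826 CPM in Prog-Tg and from 86.8 to 392 CPM in WT. The part of either marker set in the Sirt3 values was not tested.

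The start of Sirt3 is shared with Psmd13, a subunit of the regulatory particle of the proteasome, which is transcribed the other way. One RefSeq start of Sirt3 lies 85 bases from a RefSeq start of Psmd13 on chromosome 7 (GRCm38.p6). Sirt3 has another RefSeq window at chr7:140881820-140882119, and the GENCODE gene starts lie 341 bases apart. The stretch from that RefSeq start of Psmd13 to that of Sirt3 is shown in capitals, with 25 bases on each side, because both genes were measured on each side of it.
Sirt3 and Psmd13, chr7:140882284-140882419, minus strand: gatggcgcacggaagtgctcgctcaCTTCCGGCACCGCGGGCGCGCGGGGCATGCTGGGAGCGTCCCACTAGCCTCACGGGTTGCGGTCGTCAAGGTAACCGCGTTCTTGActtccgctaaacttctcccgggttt
Psmd13 was at 88.9, 81.3 and 102.9 CPM in WT, 90.1, 102.4 and 106.5 CPM in LA-Tg and 89.2, 101.7 and 110.4 CPM in Prog-Tg, and the genotypes overlapped. Its log2 fold change in Prog-Tg versus WT was 0.14 (standard error 0.139, edgeR adjusted p = 0.833), against −0.58 for Sirt3. Some annotated transcripts of the 2 genes share 342 exon bases on opposite strands, and Sirt3 shares 418 exon bases with Ric8a at its other end. The libraries were made with a strand-marking kit, but the strand setting of the counting is not given in the sources used here, so reads in these shared bases are uncertain. Ric8a was at 56.0 ± 10.3 CPM in WT and 61.5 ± 8.64 CPM in Prog-Tg.

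Sirt1 encodes the founding nuclear deacetylase of the family. Its level was 32.0, 47.9 and 33.96 CPM in the WT libraries, 39.1, 73.2 and 30.4 CPM in LA-Tg and 34.6, 70.0 and 32.7 CPM in Prog-Tg. Replicate 2 was the highest library in each genotype, and LA-Tg 2 and Prog-Tg 2 were the highest of all 9, whereas replicates 1 and 3 of all genotypes stayed between 30.4 and 39.1 CPM. The log2 fold change was 0.27 (standard error 0.400, edgeR adjusted p = 0.88) in Prog-Tg versus WT, 0.33 (standard error 0.400, adjusted p = 1.00) in LA-Tg versus WT and −0.056 (standard error 0.399, adjusted p = 0.999) in Prog-Tg versus LA-Tg. The 95% interval of the ratio of Prog-Tg to WT ran from 0.639 to 2.27, the widest of the family in this comparison. Without Prog-Tg 2 the first difference was −0.17, and without LA-Tg 2 the second was −0.13. Without WT 2 they were 0.47 and 0.53, so each difference moved with the replicate 2 library of either group. Without replicate 2 of every genotype the 3 differences were 0.026, 0.076 and −0.050, in a fit added once the values had been seen. LA-Tg 2 and Prog-Tg 2 had the 2 lowest lymphatic sums, 1435 and 1518 CPM, and no Y-linked reads. LA-Tg 1, at 39.1 CPM of Sirt1, also had almost no Y-linked reads (0.0519 CPM), with a lymphatic sum of 7118 CPM. WT 2, the highest WT library for Sirt1, had the highest lymphatic sum, 7895 CPM, and 147 CPM of Y-linked genes. The part of cell make-up in the Sirt1 values was not tested. The study itself reports Sirt1 as significantly lower in Prog-Tg than in WT ECs. It also reports a rise of Sirt1 in Prog-Tg ECs treated with an inhibitor of miR-34a-5p, by qPCR. Those transfected cells were not among these 9 libraries.

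Sirt2 encodes a mainly cytoplasmic deacetylase, of which tubulin is a known substrate. Its level was 86.2, 103.4 and 94.8 CPM in WT, 109.3, 102.9 and 115.3 CPM in LA-Tg and 83.6, 101.4 and 96.6 CPM in Prog-Tg. The 3 LA-Tg libraries lay above all 3 Prog-Tg libraries and overlapped WT. The log2 fold change was −0.22 (standard error 0.123, edgeR adjusted p = 0.999) in Prog-Tg versus LA-Tg, and 0.20 (standard error 0.123, adjusted p = 1.00) in LA-Tg versus WT. In Prog-Tg versus WT it was −0.013 (standard error 0.123, adjusted p = 0.986), and the 95% interval bounded the ratio between 0.814 and 1.20. Sirt2 was the 1 of 7 sirtuins without overlap between Prog-Tg and LA-Tg, beside 5.90% of all genes. Between LA-Tg and WT 0 of 7 sirtuins were without overlap, beside 3.95% of all genes.

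**Figure D3:**
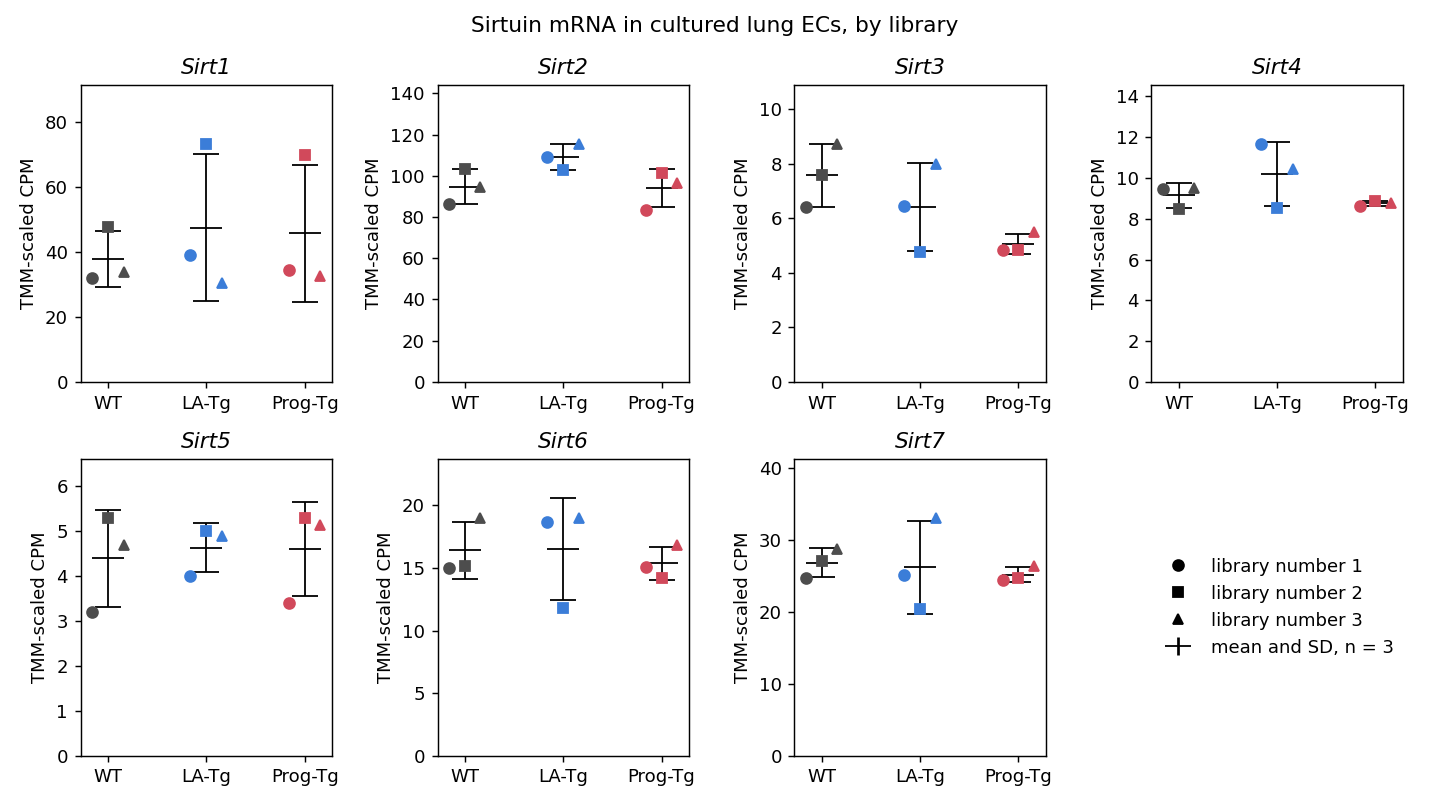
TMM-scaled CPM of each sirtuin in the 9 EC libraries, with the axis from 0. Points are libraries (circle, square and triangle for replicates 1, 2 and 3), and bars give the mean and SD of 3. Sirt3 in Prog-Tg (4.83 to 5.49 CPM) lies below WT (6.40 to 8.71 CPM), and replicate 2 stands apart for Sirt1 in LA-Tg and Prog-Tg.

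Sirt4 and Sirt5 are the other mitochondrial sirtuins. SIRT4 is known as an ADP-ribosyltransferase and lipoamidase and SIRT5 as a desuccinylase. Sirt4 ranged from 8.46 to 9.49 CPM in WT, 8.53 to 11.7 CPM in LA-Tg and 8.62 to 8.89 CPM in Prog-Tg, the narrowest range of any sirtuin in 1 genotype. Its log2 fold change in Prog-Tg versus WT was −0.063 (standard error 0.187, edgeR adjusted p = 0.943). Sirt5 was at 3.20, 5.29 and 4.69 CPM in WT, 3.996, 4.99 and 4.90 CPM in LA-Tg and 3.40, 5.29 and 5.13 CPM in Prog-Tg. Replicate 1 was the lowest library in each genotype and replicate 2 the highest. The Sirt5 log2 fold change in Prog-Tg versus WT was 0.072 (standard error 0.295, adjusted p = 0.961), with an interval of the ratio from 0.658 to 1.68.

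Sirt6 and Sirt7 encode chromatin-bound enzymes. SIRT6 is known to deacetylate histone H3 and to act in DNA repair, and SIRT7 is known for its place in the nucleolus. Sirt6 was at 15.0, 15.2 and 19.0 CPM in WT, 18.7, 11.8 and 19.0 CPM in LA-Tg and 15.0, 14.2 and 16.8 CPM in Prog-Tg. Sirt7 was at 24.7, 27.1 and 28.7 CPM in WT, 25.2, 20.3 and 33.0 CPM in LA-Tg and 24.4, 24.6 and 26.3 CPM in Prog-Tg. The genotypes overlapped for both genes, replicate 3 was the highest library in each genotype, and LA-Tg 2 was the lowest of all 9. In Prog-Tg versus WT the log2 fold change was −0.092 for Sirt6 (standard error 0.218, edgeR adjusted p = 0.928) and −0.092 for Sirt7 (standard error 0.185, adjusted p = 0.912). The intervals of the ratio ran from 0.663 to 1.33 for Sirt6 and from 0.700 to 1.26 for Sirt7. Sirt7 shares 124 exon bases with Mafg, a small MAF transcription factor gene on the same strand, at 94.5 ± 21.7 CPM in WT and 101.2 ± 12.7 CPM in Prog-Tg.

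Across the 9 libraries Sirt3, Sirt6 and Sirt7 moved alike, and Sirt1 was negatively correlated with each of them. Pearson's r of log2 CPM was 0.83 for Sirt6 with Sirt7, 0.78 for Sirt3 with Sirt7 and 0.72 for Sirt3 with Sirt6 (Spearman's rho 0.87, 0.93 and 0.85). After the mean of each genotype was taken away, r was 0.83, 0.96 and 0.90. Sirt1 gave r of −0.75 with Sirt6, −0.65 with Sirt7 and −0.53 with Sirt3 (Spearman's rho −0.58, −0.6 and −0.52). Within genotypes these r were −0.76, −0.64 and −0.62. Outside replicate 2, Sirt1 stayed between 30.4 and 39.1 CPM. Sirt4 was also like Sirt6 (r = 0.70, and 0.81 within genotypes), and less so Sirt3 (0.43, and 0.54) and Sirt7 (0.40, and 0.49). Sirt2 was most like Sirt5 (r = 0.65, and 0.83 within genotypes). The libraries are shared by all these values, LA-Tg 2 was at an extreme of 4 of these genes, and the correlations are descriptions of 9 libraries.

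**Figure D4:**
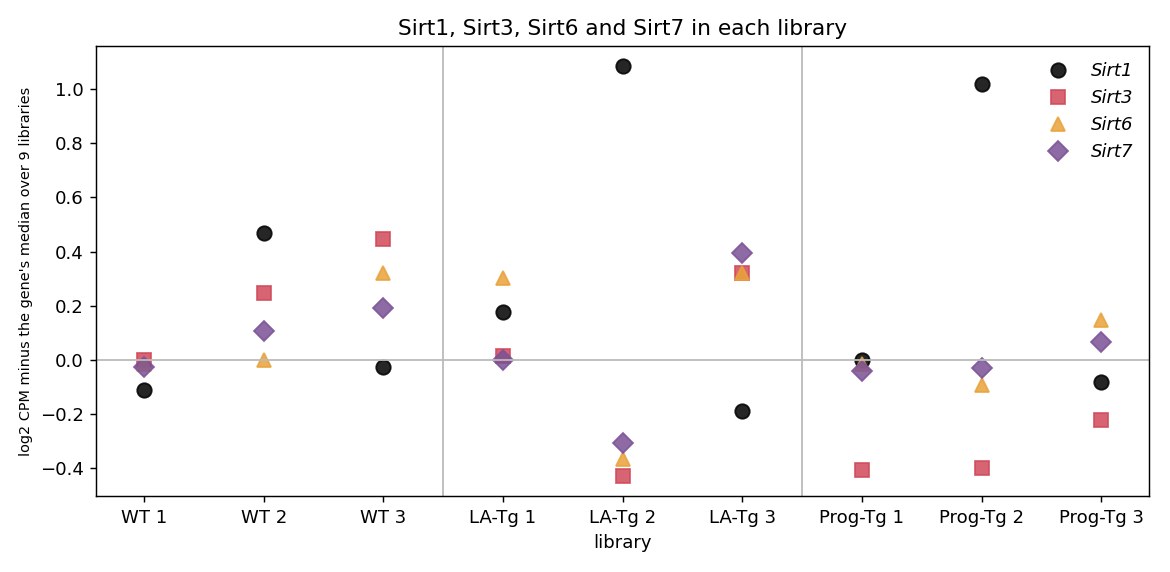
log2 CPM of Sirt1, Sirt3, Sirt6 and Sirt7 in each library, minus the median of that gene over the 9 libraries. In LA-Tg 2, Sirt1 has its highest level (73.2 CPM) and the other 3 genes their lowest (4.76, 11.8 and 20.3 CPM), and in WT 3 and LA-Tg 3 the order is turned.

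**Figure D5:**
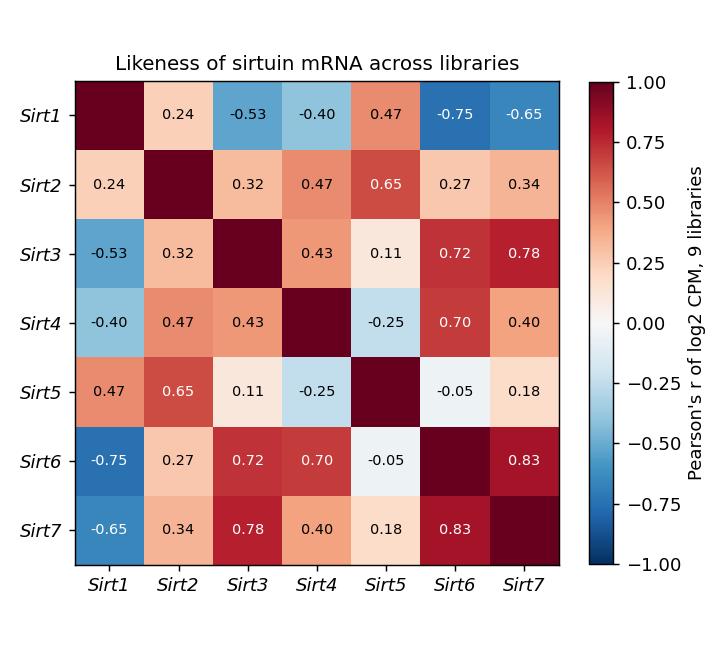
Pearson's r of log2 CPM between each pair of sirtuins over the 9 libraries. Sirt3, Sirt6 and Sirt7 form a block of r from 0.72 to 0.83, and Sirt4 has r of 0.70 with Sirt6. The row of Sirt1 is negative for Sirt3, Sirt4, Sirt6 and Sirt7.

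The genes most like each sirtuin were sought among 12880 other genes with a mean of at least 1 CPM. For Sirt1 they were Nras, a RAS GTPase (r = 0.982), and Mff, a mitochondrial fission factor (r = 0.981). For Sirt2 they were Plin3, a lipid droplet protein (r = 0.946), and Tmem17 (r = 0.924), and for Sirt3 they included Ppp6r1, a regulatory subunit of protein phosphatase 6 (r = 0.959). For Sirt4 they were 4833439L19Rik (r = 0.913) and Cyp27a1, a sterol hydroxylase (r = 0.912), and for Sirt5 Rab3a (r = 0.972) and Dhrs7b (r = 0.960). For Sirt6 they were Trpm4, a cation channel, and Blvrb, a biliverdin reductase (r = 0.941 each), and for Sirt7 they included Engase, a glycosidase (r = 0.970). The highest of 12880 values over 9 libraries is expected to be high, and these names are a description only.

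Other genes lie next to or within the sirtuin genes. Dnajc12 starts 739 bases from the farthest annotated start of Sirt1, Nfkbib 777 bases from that of Sirt2 and Ankrd24 743 bases from that of Sirt6, each on the other strand. The RefSeq promoter window of Sirt1 is at chr10:63338986-63339285, away from the Dnajc12 start at chr10:63382443. Nfkbib also shares 42 exon bases with Sirt2. None of these 3 genes passed the unadjusted threshold in a comparison. Dnajc12 was at 8.40 ± 1.73 CPM in WT and 6.35 ± 1.43 CPM in Prog-Tg, Nfkbib, an inhibitor of NF-kappaB, at 14.3 ± 6.05 and 17.0 ± 5.52 CPM, and Ankrd24 at 11.7 ± 2.55 and 11.2 ± 0.749 CPM. Gm16145, an antisense transcript inside Sirt1 that shares 65 exon bases with it, had no counts in 8 libraries and 0.0545 CPM in Prog-Tg 2. Mir6936, which lies within Sirt7, had no counts in this poly(A) data.

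Genes of NAD+ synthesis and salvage, a list that also holds the NAD+ kinases Nadk and Nadk2 and the mitochondrial NAD+ carrier Slc25a51, showed 1 member past the unadjusted threshold. Of 12 listed, 10 were tested, and in Prog-Tg versus WT 1 was higher and 0 lower at an unadjusted p under 0.05, against 3.40% of all genes. Their median difference was 0.074, beside −0.0080 over all genes. The member was Nmnat2, a nicotinamide mononucleotide adenylyltransferase, at 1.43, 0.481 and 0.991 CPM in WT, 0.701, 0.871 and 1.75 CPM in LA-Tg and 4.56, 1.04 and 3.57 CPM in Prog-Tg. Its Prog-Tg and WT libraries overlapped, with Prog-Tg 2 within the WT range. The log2 fold change was 1.65 (standard error 0.65, edgeR adjusted p = 0.83). Nampt, the rate-limiting enzyme of NAD+ salvage, had a log2 fold change of −0.27 in this comparison. None of the 10 passed in the other comparisons. With the replicate number added as a block, Nmnat2 passed the unadjusted threshold in Prog-Tg versus LA-Tg (log2 fold change 1.29, against 1.47 without it, adjusted p = 0.909).

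Other enzymes that use NAD+ or nicotinamide gave 0 of 8 tested members past the unadjusted threshold in each comparison, a count near those 3.40%, 0.830% and 1.71% of all genes, with a median of 0.047 in Prog-Tg versus WT beside −0.0080 over all genes. The smallest p in Prog-Tg versus WT belonged to Nnmt, which methylates nicotinamide, and Cd38, an NAD+ glycohydrolase. Nnmt was at 9.11, 1.06 and 14.6 CPM in WT, 3.50, 52.6 and 6.14 CPM in LA-Tg and 13.8, 52.4 and 31.4 CPM in Prog-Tg (log2 fold change 1.98 versus WT, standard error 1.17, edgeR adjusted p = 0.83). As for Sirt1, its highest libraries were LA-Tg 2 and Prog-Tg 2. Cd38 was at 40.0 CPM on average in WT, 69.3 CPM in LA-Tg and 68.6 CPM in Prog-Tg, with a log2 fold change of 0.79 in LA-Tg versus WT (standard error 0.511, adjusted p = 1.00) and of 0.77 in Prog-Tg versus WT (standard error 0.511, adjusted p = 0.83).

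Among 8 listed regulators of Sirt1, all tested, 0 passed the unadjusted threshold in either comparison with WT, and 1 was higher in Prog-Tg versus LA-Tg, beside 1.71% of all genes. The median difference was 0.14 in Prog-Tg versus WT, beside −0.0080 over all genes. The member was Foxo3, a transcription factor known to act on the Sirt1 promoter. It was at 84.1, 71.2 and 80.6 CPM in WT, 72.6, 72.8 and 72.5 CPM in LA-Tg and 87.0, 82.2 and 96.7 CPM in Prog-Tg, and the Prog-Tg and LA-Tg libraries did not overlap. The log2 fold change in Prog-Tg versus LA-Tg was 0.29 (standard error 0.114, edgeR adjusted p = 0.999). Usp22 and Trp53 of this list were also higher in Prog-Tg than in LA-Tg without overlap, beside 5.90% of all genes. Usp22 was higher than in WT without overlap too, beside 13.7% of all genes. Trp53, which encodes p53, was at 119.9 ± 33.3 CPM in WT and 140.2 ± 19.3 CPM in Prog-Tg (log2 fold change 0.23, adjusted p = 0.834). Cdkn1a, the p53 target p21, was at 315 ± 168 and 507 ± 152 CPM (log2 fold change 0.68, adjusted p = 0.83).

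Of 10 nuclear and cytosolic substrates, 1 passed the unadjusted threshold upward and 1 downward when Prog-Tg was compared with WT, and 0 in the other comparisons (of all genes, 3.40% passed in Prog-Tg versus WT, 0.830% in LA-Tg versus WT and 1.71% in Prog-Tg versus LA-Tg). Ppargc1a encodes the coactivator PGC-1alpha, a SIRT1 substrate known to drive mitochondrial genes and, in other tissues, Sirt3. It was at 5.15, 10.6 and 4.54 CPM in WT, 5.48, 3.89 and 4.15 CPM in LA-Tg and 2.64, 2.84 and 1.04 CPM in Prog-Tg. All 3 Prog-Tg libraries lay below the 6 others. The log2 fold change was −1.65 (standard error 0.48, edgeR adjusted p = 0.83) versus WT and −1.07 (standard error 0.475, adjusted p = 0.999) versus LA-Tg. Npm1, the nucleolar protein nucleophosmin, was at 252 CPM on average in WT and 355 CPM in Prog-Tg, without overlap (log2 fold change 0.50, standard error 0.216, adjusted p = 0.83). Of all genes, 13.7% were without overlap in Prog-Tg versus WT and 5.90% in Prog-Tg versus LA-Tg. With the replicate block, Ppargc1a also passed the unadjusted threshold in Prog-Tg versus LA-Tg (log2 fold change −1.20, adjusted p = 0.909). The median of the 10 was −0.0077, beside −0.0080 over all genes.

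Mitochondrial substrates gave 0 of 12 tested members (14 listed) past the unadjusted threshold in each comparison, beside 3.40%, 0.830% and 1.71% of all genes, with a median of 0.11 in Prog-Tg versus WT beside −0.0080 over all genes. Pdha1, a subunit of pyruvate dehydrogenase, was at 77.6, 70.2 and 76.8 CPM in WT, 79.3, 126 and 85.8 CPM in LA-Tg and 86.1, 118.8 and 100.0 CPM in Prog-Tg, with both transgenic groups above WT in every library (log2 fold change 0.44 in Prog-Tg versus WT, edgeR adjusted p = 0.83). Groups without overlap were found for 13.7% of all genes in Prog-Tg versus WT and 3.95% in LA-Tg versus WT. Aldh2, a mitochondrial aldehyde dehydrogenase, had a log2 fold change of 0.41 in Prog-Tg versus WT (adjusted p = 0.83). The zinc-dependent histone deacetylases, the other deacetylase families, gave 0 of 11 members in each comparison, beside the same shares of all genes. Hdac2 was at 125.3 CPM on average in WT and 143.2 CPM in Prog-Tg (log2 fold change 0.19), and Hdac10 at 8.74 and 6.85 CPM (log2 fold change −0.35).

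The miR-34 family was measured in 9 EC miR libraries of the same genotypes, where 446 of 1907 miRs were tested. These libraries are not stated to be from the cultures of the same-numbered mRNA libraries, so the values stand side by side and were not correlated. In the study's own summary sheets of EC miRs the column headings name other genotypes than the sheet titles, so the genotype of each miR value rests on the sample labels alone. Library totals were 2015256 to 19288343 counts. miR-34a-5p was at 10550, 7902 and 2207 CPM in WT, 4545, 7776 and 11180 CPM in LA-Tg and 12040, 8753 and 10220 CPM in Prog-Tg. The genotypes overlapped, and WT 3 was the lowest of all. Its log2 fold change was 0.59 (standard error 0.556, edgeR adjusted p = 0.959) in Prog-Tg versus WT, 0.19 (standard error 0.554, adjusted p = 0.971) in LA-Tg versus WT and 0.40 (standard error 0.555, adjusted p = 0.982) in Prog-Tg versus LA-Tg. The 95% interval of the first ran from −0.65 to 1.82, and its value went from 0.27 without WT 3 to 1.00 without WT 1. miR-34b-5p and miR-34c-5p were less abundant, at 45.8 ± 28.1 and 521 ± 333 CPM in WT and 95.3 ± 64.8 and 876 ± 201 CPM in Prog-Tg, with log2 fold changes of 1.05 (adjusted p = 0.959) and 0.75 (adjusted p = 0.959). The Sirt1 transcript, with its 2 seed matches, stood at 38.0 ± 8.64 CPM in WT and 45.8 ± 21.0 CPM in Prog-Tg, and Sirt7, with 1, at 26.8 ± 2.02 and 25.1 ± 1.04 CPM.

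The promoters of the 7 genes were rich in CpG. RefSeq gives 9 windows of 300 bases, 250 before and 50 after each start, with 15 to 47 CpG against a median of 7 over 32851 windows, and a GC content of 50.0% to 79.0% against a median of 52.67%. The GC box GGGCGG, searched on both strands, was in 6 of 9 windows and in 35.7% of all windows. The CCAAT box CCAAT was in 3 of 9 windows and in 37.4% of all. The TATA box TATAAA was in 0 of 9 windows and in 13.6% of all. The E-box CACGTG was in 1 of 9, that of Sirt1, and in 7.2% of all.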

How the data were processed

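The authors aligned reads to GRCm38 with STAR 2.5.1b and deposited raw counts per gene or miR from HTSeq 0.5.4p3, and their own test used TMM, voom and limma in R 3.3.2. From these counts, the 9 EC mRNA libraries (17961152 to 67602012 counts) and the 9 EC miR libraries (2015256 to 19288343 counts) were used, grouped by the genotype in the sample labels. Plasma and medium counts, and the authors' tables of fold changes and p values, were not used.

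The main fit used edgeR 4.0.16 under R 4.3.3, with filterByExpr (minimum count 10, minimum total 15), TMM scaling, all 9 libraries with genotype as the only term, and the quasi-likelihood F test. Adjusted p values are those of Benjamini and Hochberg across every gene or miR that was tested. Intervals are 95%. Correlations used log2(CPM + 0.5). Lengths and 3′ UTRs came from GENCODE M21, and miRs and promoters from RefSeq, where all 7 sirtuins matched. The alternatives were DESeq2 1.42.0, limma-voom 3.58.1, no filter, RLE, library size alone, the 2 groups compared alone, the replicate block, and each library left out.

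The members and lists were chosen with earlier results of these data known. Named genes were the sirtuins, members of each pathway list with an unadjusted p under 0.05 in any comparison (otherwise the 2 with the smallest p in Prog-Tg versus WT, at most 4), the 2 most alike genes of each sirtuin (for Sirt3 and Sirt7, 1 of the 2 is not reported here), neighbouring genes, the miR-34 family, and Lmna, Cdh5, Trp53 and Cdkn1a. Cdh5, a check of cell identity, had 1469 CPM or more in every library. Its log2 fold change in Prog-Tg versus WT was 0.27, while 6 of the 8 endothelial markers had a negative one. Marker lists are given as sums. Nampt and Usp22 were added after their values were seen.

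To check the replicate numbers, each library's deviation from its group mean was correlated with that of the library of the same number in another genotype. All 3 correlations were over 0.1 for LA-Tg with Prog-Tg in mRNA (0.67, 0.63, 0.35), and in miR for Prog-Tg with WT (0.65, 0.56, 0.43) and Prog-Tg with LA-Tg (0.56, 0.73, 0.68). Numbers were taken as pairs there, from the values and not from the labels.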

Additional observations from a re-analysis of the deposited data

How the results depend on the processing

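Under every alternative run, the adjusted p of every sirtuin and of miR-34a-5p stayed above 0.05. The unadjusted count of sirtuins in Prog-Tg versus WT was 1 (Sirt3) and not 0 with DESeq2, the replicate block, the 2 groups compared alone and without WT replicate 1, so 0 to 1 over the libraries left out, and it was 0 throughout in the other comparisons. In these 4 settings 5.61%, 4.59%, 6.52% and 4.21% of all genes passed that threshold in Prog-Tg versus WT, against 3.40% in the fit reported. Sirt3 kept its direction in all alternatives, from −0.47 without WT 3 to −0.69 without WT 1 in Prog-Tg versus WT. With the replicate block it was −0.58 there. For WT with Prog-Tg in mRNA the numbers were not taken as pairs, since not all correlations were over 0.1 (0.49, −0.03 and 0.47). With 3 libraries per genotype, this rule cannot settle whether they pair. The numbers were taken as pairs for LA-Tg with Prog-Tg in mRNA, and for Prog-Tg with WT or LA-Tg in miR. There the block put no sirtuin and none of the 3 miR-34 members past the unadjusted threshold, and Foxo3 stayed past it. The block was fitted over the libraries of all 3 genotypes at once, and not over the paired genotypes alone.

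Small differences changed sign, none of them called. When single libraries were left out of Prog-Tg versus WT, the range was −0.17 to 0.47 for Sirt1, −0.080 to 0.055 for Sirt2, −0.12 to 0.24 for Sirt5 and −0.16 to 0.025 for Sirt6. In LA-Tg versus WT it was −0.13 to 0.56 for Sirt1, −0.11 to 0.23 for Sirt5, −0.10 to 0.20 for Sirt6, −0.24 to 0.11 for Sirt7 and −0.33 to 0.61 for miR-34a-5p. For miR-34a-5p the range was 0.27 to 1.00 in Prog-Tg versus WT (0.91 with library size alone) and 0.15 to 0.95 in Prog-Tg versus LA-Tg. In Prog-Tg versus LA-Tg it was −0.50 to 0.39 for Sirt1, −0.11 to 0.17 for Sirt5, −0.29 to 0.0095 for Sirt6 and −0.21 to 0.14 for Sirt7. In LA-Tg versus WT, Sirt6 was −0.0073 with library size alone and −0.0079 with the replicate block, and Sirt7 was 0.12 without replicate 2 of every genotype. In Prog-Tg versus LA-Tg, Sirt5 was 0.0084 with DESeq2, 0.067 with limma-voom, 0.0024 with no filter and 0.0089 with library size alone. The causes were not tested.

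With 3 libraries per genotype, the 95% interval of the ratio of Prog-Tg to WT spanned 0.639 to 2.27 for Sirt1 and 0.446 to 1.01 for Sirt3.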
